A study of Mus musculus with 2 samples.

Results

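Bcor and 9 other genes of the Polycomb complexes were followed in RNA that came down with chromatin in enChIP, an immunoprecipitation of chromatin through an engineered tagged DNA-binding protein. The genes are Bcor, Bcorl1, Kdm2b, Asxl1, Ezh2, Suz12, Eed, Jarid2, Rnf2 and Ring1. They were chosen by name, with earlier results of these data known. Every listed transcript carrying one of these 10 gene symbols was taken. That gave 44 of the 48876 transcripts and 10 of the 24117 gene symbols in the files. The RNA came from Ba/F3, a mouse hematopoietic line that depends on interleukin 3 and is recorded as C3H strain. One derivative expressed 3xFN-Tel-TAL, a FLAG-tagged TAL protein with a nuclear localization signal that binds telomeric repeats. The other expressed 3xFNLDD, a FLAG-tagged LexA protein, and was the negative control. Both derivatives carried their tagged protein stably, and in both the anti-FLAG M2 antibody was used on chromatin crosslinked with formaldehyde and sonicated. There was 1 library for each, with no record of whether a derivative is a single clone, so no difference has a replicate check. Fewer cells, less of an RNA per cell and less capture of it cannot be told apart in such bulk isolates, and RNA from before the immunoprecipitation was not analysed here.

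Polycomb proteins keep developmental genes silent through marks on histones. Polycomb repressive complex 2 (PRC2), built on Ezh2, Suz12 and Eed, methylates lysine 27 of histone H3, and Jarid2 is an accessory subunit that helps bring it to chromatin. Polycomb repressive complex 1 (PRC1) carries Ring1 or Rnf2, the ligases that put ubiquitin on histone H2A. Bcor or Bcorl1 joins a variant of PRC1 in which Kdm2b binds unmethylated CpG islands. Asxl1 activates the deubiquitinase Bap1, which takes the ubiquitin off H2A again. The comparison asks whether the mRNAs of these proteins were more abundant in the telomere isolate than in the control isolate, and says nothing about the proteins.

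The 3xFNLDD library held 7206183 reads and the 3xFN-Tel-TAL library 9774844. A level is given as RPM, the read count scaled to its library's total, and a difference as the log2 ratio of RPM, 3xFN-Tel-TAL over 3xFNLDD. Below, counts given in pairs name 3xFNLDD first and 3xFN-Tel-TAL second, unless stated otherwise. Each ratio has an exact 95% Clopper-Pearson interval, which covers counting error only and compares these libraries, not the conditions. Even counts were more common than odd ones at low counts, with 63.0% of the counts from 1 to 10 even in 3xFNLDD and 56.7% in 3xFN-Tel-TAL. Reads were therefore not taken as independent molecules, and a wider interval from counts divided by 2 is given beside the first where the reading changes. The 8930 genes with 50 or more reads over both libraries had a median log2 ratio of 0.40, so a gene at that value had moved with the bulk of genes. TMM, the scaling by trimmed means in edgeR, lowered every log2 ratio by 0.37 and placed that median at 0.026. The 10 markers of pro-B or interleukin 3-dependent cells that were analysed had a sum of 200.4 RPM and 213.7 RPM. The receptor chain Csf2rb had 583 and 1052 reads, whereas Cd79a had 0 and 2 reads and Igll1 2 and 0. Of 9 markers of other cell types, 8 were listed, with 15.0 RPM and 12.1 RPM together. Their highest was Hbb-b1 with 49 and 73 reads, and Krt5 had 5 and 0.

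The 10 genes fell at different places. Bcorl1, Rnf2, Ring1, Suz12, Jarid2 and Eed had more RPM in 3xFN-Tel-TAL, with log2 ratios from 1.01 to 1.53. Ezh2, Bcor, Kdm2b and Asxl1 had log2 ratios from 0.20 to 0.38, all under the median of the 8930 genes. Of the 8 genes with at least 50 reads, 4 were above 1.4-fold, the study's threshold, beside 42.2% of all genes with that depth. None was below 1/1.4-fold, beside 7.61% of all genes. By library totals the share above 1.4-fold is thus close to the background, and these 8 genes are not set apart as a group by it. With TMM 4 of the 8 were again above 1.4-fold, beside 18.7% of all genes. That is a larger share than the background, but it rests on 8 genes and 1 library per group. By library totals the median log2 ratio of the 8 genes was 0.78. The lower end of the 95% interval lay above 1.4-fold for 4 genes, Bcorl1, Suz12, Jarid2 and Ring1, beside 12.0% of all genes. With counts divided by 2 it was above 1.4-fold for Bcorl1 and Suz12 only, beside 6.32% of all genes. The 2 genes under 50 reads, Rnf2 and Eed, are given by their values alone.

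**Figure D1:**
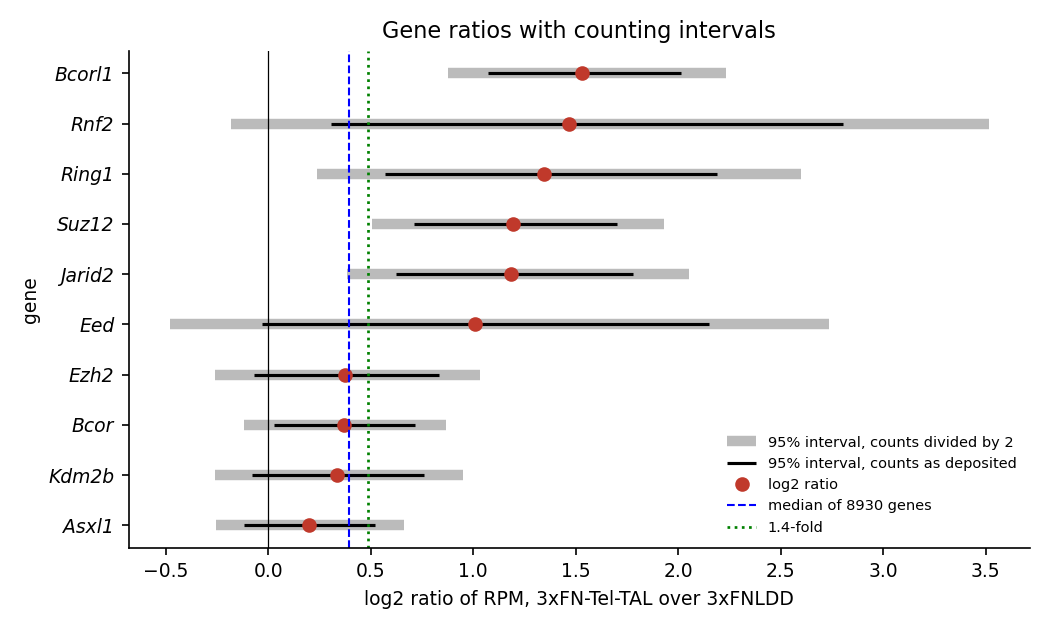
Log2 ratio of RPM (x axis, 3xFN-Tel-TAL over 3xFNLDD) for each of the 10 genes (y axis), reads summed over transcripts. Points are ratios, thin bars the 95% counting interval, thick bars the same from counts divided by 2, the dashed line the median of 8930 genes (0.40) and the dotted line 1.4-fold. Bcorl1 and Suz12 have both bars above 1.4-fold, whereas Ezh2, Bcor, Kdm2b and Asxl1 straddle the dashed line.

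**Figure D2:**
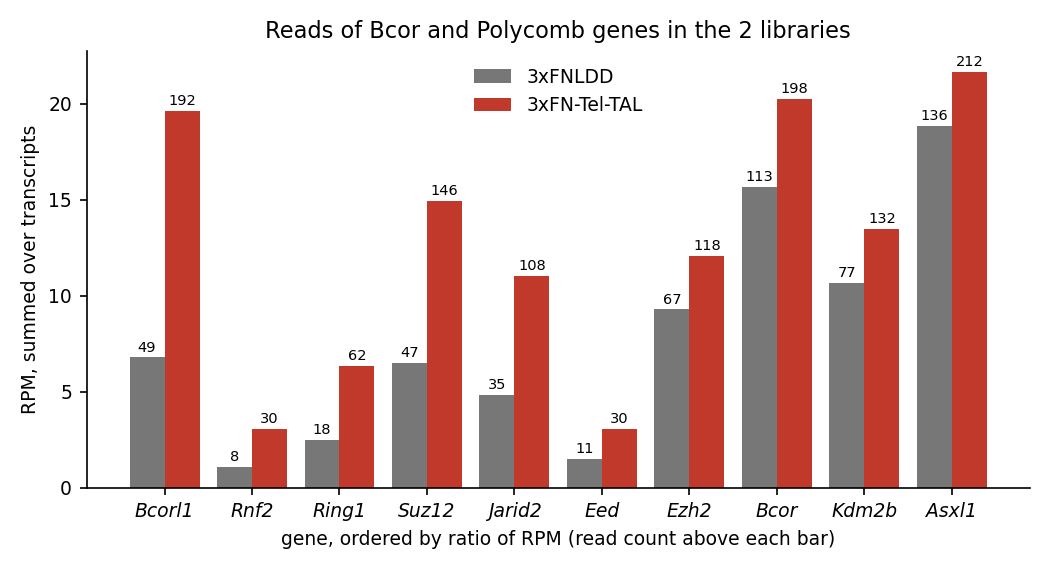
RPM of each gene (y axis, starting at 0) in 3xFNLDD (grey) and 3xFN-Tel-TAL (red), with the read count above each bar and the genes ordered by ratio. Bcorl1 has 49 and 192 reads, and Bcor 113 and 198.

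The Tel-TAL protein binds a stretch of 19 bases of the repeat TTAGGG. The gene spans were searched for the window of 19 bases most like a run of that repeat, in any phase and on both strands. The phase that the protein reads was not used, so a window is a likeness to the repeat and not a predicted binding site. The sequences are from NCBIM37, and capitals mark bases that match the run. They are shown for the 2 genes with the closest windows, Asxl1 and Jarid2, and for Bcorl1 and Suz12, the genes with the best resolved ratios.
Asxl1: TTtGGGTTtGGGTTtGGGT
Jarid2: AGGGTTAtaGTTAaGGTTA
Bcorl1: GGTTgGGGaaAGGcTTAGG
Suz12: TattGcTTAGGGTgtGGGT

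The Asxl1 window lies at chr2:153185676-153185694, on the forward strand in an intron, and matches 16 of 19 bases. The Jarid2 window, at chr13:44933648-44933666 on the forward strand in an intron, also matches 16. The Bcorl1 window is intronic, at chrX:45697280-45697298 on the reverse strand, and matches 15. The Suz12 window, in an intron at chr11:79809014-79809032 on the forward strand, matches 13. Of the 2 genes with 16 matches, Asxl1 had the lowest log2 ratio of the 10 genes, 0.20, and Jarid2 had one of 1.19.

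Long genes hold close windows more often. A window at least as close was found in 8.96% of 2087 protein-coding genes with a span within 25% of Asxl1's, and in 27.2% of 749 such genes for Jarid2. For Bcorl1 the share was 49.7% of 1887 genes and for Suz12 100% of 2460 genes. The best windows of the other 6 genes matched 13 to 15 bases, in an exon of Kdm2b and in introns of the others. A full match of 19 bases was present in 0.661% of all protein-coding genes and in none of the 10. The median log2 ratio was 0.35 for the 653 genes with at least 50 reads and a window of 16 or more matches, and 0.41 for all 7508 protein-coding genes with that depth that were searched.

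Within the Bcor complex the related corepressors differed. Bcor, on the reverse strand of chromosome X (11613866 to 11737481), had 113 reads (15.7 RPM) in the control isolate and 198 reads (20.3 RPM) in the telomere isolate. Its log2 ratio was 0.37 (95% interval 0.029 to 0.72, and -0.12 to 0.87 with counts divided by 2), at the median of all genes. Bcorl1, which is its homolog on the forward strand of the same chromosome (45694535 to 45761226), had 49 reads (6.80 RPM) and 192 reads (19.6 RPM). The log2 ratio of Bcorl1 was 1.53 (95% interval 1.07 to 2.01, and 0.88 to 2.23 with counts divided by 2), the highest of the 10 genes. It ranked 231 among the 8930 genes, above 97.4% of them. The ratio of Bcorl1 was 2.24 times that of Bcor (95% interval 1.49 to 3.38, and 1.26 to 4.13 with counts divided by 2). This quotient does not depend on library scaling.

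The Bcorl1 value came from 1 transcript. ENSMUST00000037596, a protein-coding transcript of 7360 nt, had 46 and 180 of its reads with a log2 ratio of 1.53. The processed transcript ENSMUST00000156703 had 3 and 8 reads and the second coding transcript ENSMUST00000136348 had 0 and 4, too few for a ratio. Bcor was read mainly as ENSMUST00000043441, with 80 and 142 reads and a log2 ratio of 0.39. A second long coding transcript of Bcor, ENSMUST00000065143, had 27 and 39 reads and a log2 ratio of 0.091 (95% interval -0.65 to 0.86). The intervals of these Bcor transcripts overlap, and both lie around the median of all genes. The 3 other transcripts of Bcor had 2 to 11 reads each in both libraries together.

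Kdm2b, the CpG-binding demethylase of this complex, had 77 reads (10.7 RPM) in the control isolate and 132 reads (13.5 RPM) in the telomere isolate, and so a log2 ratio of 0.34 (95% interval -0.079 to 0.76). It moved with the bulk of genes, as Bcor did. Its reads were spread over 13 listed transcripts on the reverse strand of chromosome 5, only 3 of which had at least 20 reads. The short coding transcript ENSMUST00000031435 had 39 and 65 reads and a log2 ratio of 0.30. The long coding transcript ENSMUST00000046073 had 10 and 10 reads with a log2 ratio of -0.44, but its interval from -1.86 to 0.98 covers the ratio of the short one. A retained-intron transcript, ENSMUST00000139674, had 10 and 22 reads and a log2 ratio of 0.70. Of the other 10 transcripts, 5 had no read in 3xFNLDD and 3 had none in 3xFN-Tel-TAL, with at most 6 reads in the library that had any. Part of the most-read Kdm2b transcript, 47.1% of its length, has a copy of 99.6% identity at Gm12397 on chromosome 4, which is not among the listed genes. A shorter copy, over 22.4% of its length at 95% identity, lies at Efhc2 on chromosome X. How reads were shared between Kdm2b and these copies is not known.

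**Figure D3:**
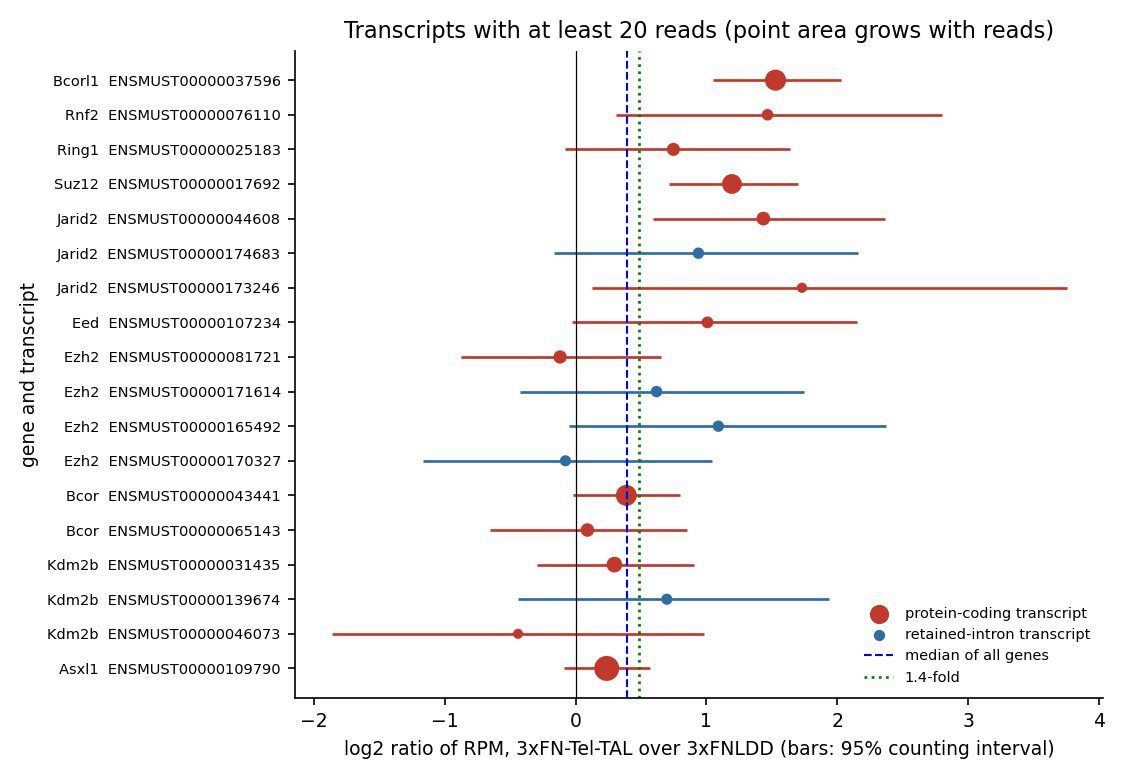
Log2 ratio of RPM (x axis) for the 18 transcripts of the 10 genes with 20 or more reads over both libraries (y axis, ordered by gene ratio). Point area grows with the read count, bars are 95% counting intervals, red marks protein-coding and blue retained-intron transcripts, the dashed line is the median of all genes and the dotted line 1.4-fold. The longest bar on the right is that of the Jarid2 transcript with 4 and 18 reads, and the Bcorl1 bar lies wholly above 1.4-fold.

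Ezh2, Suz12, Eed and Jarid2 had log2 ratios from 0.38 for Ezh2 to 1.20 for Suz12, and with counts divided by 2 the interval of every quotient between them took in 1. Ezh2, the methyltransferase, on the reverse strand of chromosome 6, had 67 reads (9.30 RPM) in the control isolate and 118 reads (12.1 RPM) in the telomere isolate, and so a log2 ratio of 0.38 (95% interval -0.068 to 0.83). Suz12, the scaffold subunit, on the forward strand of chromosome 11 (79806608 to 79847625), had 47 reads (6.52 RPM) and 146 reads (14.9 RPM). Its log2 ratio of 1.20 (95% interval 0.71 to 1.70) was above that of 92.2% of all genes with that depth. Suz12 has 1 listed transcript, so its value does not rest on how reads were shared among transcripts. It does have a related locus on chromosome X, at Gm14745 and Gm14752, which matches 89.8% of the transcript at 85.0% identity and had 41 and 51 reads. A shorter copy on chromosome 13, at no annotated gene, matches 15.6% of the transcript at 96.1% identity.

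Eed, the subunit that reads the methyl mark, had only 11 reads (1.53 RPM) in the control isolate and 30 reads (3.07 RPM) in the telomere isolate, also on 1 transcript. Its log2 ratio of 1.01 has an interval from -0.030 to 2.15, which does not tell it from the median of all genes. The read count of Eed in 3xFNLDD is close to that of Col1a1 (14 reads) and Cd8a (15 reads), markers of other cell types. Jarid2 had 35 reads (4.86 RPM) and 108 reads (11.1 RPM), for a log2 ratio of 1.19 (95% interval 0.62 to 1.78). Its 3 transcripts with at least 20 reads all had more RPM in 3xFN-Tel-TAL. They were the coding ENSMUST00000044608 at 1.43 (15 and 55 reads), the coding ENSMUST00000173246 at 1.73 (4 and 18 reads) and the retained-intron ENSMUST00000174683 at 0.94 (10 and 26 reads).

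The ratio of Suz12 was 1.76 times that of Ezh2 (95% interval 1.10 to 2.83), and that of Jarid2 was 1.75 times that of Ezh2 (95% interval 1.05 to 2.94). Both pairs were added after the values were seen, and with counts divided by 2 both intervals include 1, from 0.90 to 3.45 and from 0.83 to 3.64. The ratio of Suz12 was 1.14 times that of Eed, with an interval from 0.48 to 2.56 that leaves the difference unresolved. For Ezh1, the other methyltransferase, with 71 and 179 reads and a log2 ratio of 0.89, the ratio was 1.43 times that of Ezh2 (95% interval 0.93 to 2.19).

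Unlike Suz12, which has 1 listed transcript, Ezh2 has 7, and its reads were spread over coding and retained-intron ones. Its main coding transcript ENSMUST00000081721 held 34.1% of its reads, 28 and 35, with a log2 ratio of -0.12 (95% interval -0.88 to 0.65). Its 4 retained-intron transcripts had 39 and 81 reads together, a log2 ratio of 0.61 (95% interval 0.046 to 1.21, and -0.20 to 1.47 with counts divided by 2). The interval of the retained-intron reads overlaps that of the coding reads. Among them, ENSMUST00000165492 had 9 and 26 reads and a log2 ratio of 1.09, while ENSMUST00000170327 had 14 and 18 and a log2 ratio of -0.077.

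Both ligases of PRC1 were shallow. Rnf2, on the reverse strand of chromosome 1, had 8 reads (1.11 RPM) in the control isolate and 30 reads (3.07 RPM) in the telomere isolate on its 1 transcript. Its log2 ratio was 1.47, with a wide interval from 0.31 to 2.80, and from -0.18 to 3.52 with counts divided by 2. Ring1, on the reverse strand of chromosome 17 (34157737 to 34161625), had 18 reads (2.50 RPM) and 62 reads (6.34 RPM), for a log2 ratio of 1.34 (95% interval 0.57 to 2.19). The ratio of Ring1 was 0.92 times that of Rnf2, with an interval from 0.31 to 2.54, so any difference within that range could not be resolved.

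Part of the Ring1 ratio came from reads counted on transcripts typed as retained-intron, which need not lie in the introns themselves. The coding transcript ENSMUST00000025183 had 18 and 41 reads with a log2 ratio of 0.75 (95% interval -0.084 to 1.64). The retained-intron transcript ENSMUST00000174054, of 2552 nt in 3 exons, had 0 reads in the control isolate and 18 in the telomere isolate. Against a floor of 3 reads in 3xFNLDD, which is 0.416 RPM, it was at least 4.42-fold higher. Counting error allows less, with a lower 95% bound of 1.70 on the log2 scale, and of 0.54 with counts divided by 2. A further retained-intron transcript, ENSMUST00000172739, had 0 and 3 reads. The coding transcript alone was above 1.4-fold, but its interval reached below a ratio of 1.

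Summed over the 10 genes, the 22 protein-coding transcripts had 471 and 1034 reads with a log2 ratio of 0.69. The 13 retained-intron transcripts had 75 and 166 reads with a log2 ratio of 0.71 (95% interval 0.30 to 1.12). These sums do not cover the same genes, since Bcor, Bcorl1, Suz12, Eed and Rnf2 have no listed retained-intron transcript. Within genes the types differed in either direction. Coding and retained-intron log2 ratios were -0.077 and 0.61 for Ezh2, and 1.54 and 0.68 for Jarid2, with overlapping intervals in both genes. Without Ring1 the retained-intron value was 0.51 (95% interval 0.099 to 0.93, and -0.077 to 1.12 with counts divided by 2). Over all annotated transcripts of the files the same sums gave 0.19 for protein-coding and 0.30 for retained-intron transcripts. Of the 18 transcripts with at least 20 reads, 11 were above 1.4-fold, beside 44.2% of all transcripts with that depth. The remaining 26 transcripts were shallower, 13 with no read in 3xFNLDD and 4 with none in 3xFN-Tel-TAL.

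Asxl1, the Bap1 cofactor on the forward strand of chromosome 2 (153171581 to 153229743), was the most deeply read of the 10 genes and had the lowest ratio. It had 136 reads (18.9 RPM) in the control isolate and 212 reads (21.7 RPM) in the telomere isolate, and so a log2 ratio of 0.20 (95% interval -0.12 to 0.52). Only 34.7% of the genes with at least 50 reads had a lower ratio. One coding transcript, ENSMUST00000109790, held 97.1% of its reads. Part of that transcript, 13.6% of its length, has a copy of 99.8% identity at Pcdh11x on chromosome X. Asxl2, the paralog of Asxl1, had 289 and 530 reads. Its ratio was 1.18 times that of Asxl1 (95% interval 0.90 to 1.54), so those paralogs were not resolved from each other. Exons of Asxl1 share 197 bases with 2500004C02Rik, a gene on the other strand with 26 and 25 reads. The library kit does not mark strand, so reads in those bases cannot be assigned to one of them. The same holds for 199 bases of Kdm2b and A930024E05Rik (5 and 22 reads). Exons of Bcorl1 share 67 bases with AL672246.1, a microRNA entry on the same strand with 20 and 25 reads. How reads were shared between Bcorl1 and that entry is not known.

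Of the 45 pairs among the 10 genes, 17 had a quotient of ratios whose 95% interval excluded 1, and 6 did with counts divided by 2. No share was computed over pairs of other genes, so these counts are not read as unusual. Each of the 17 set Bcor, Kdm2b, Asxl1 or Ezh2 against one of Bcorl1, Suz12, Jarid2, Ring1 and Rnf2. Bcorl1 was in 4 of the 6 pairs that held with counts divided by 2, against each of Bcor, Kdm2b, Asxl1 and Ezh2. The other 2 set Asxl1 against Suz12 and Jarid2. Eed was in none of them.

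Per length of transcript, the order of levels was different from the order of ratios. In RPKM, the RPM per kilobase of transcript, summed over a gene's transcripts, Ezh2 was highest at 6.57 in 3xFNLDD and 9.12 in 3xFN-Tel-TAL. Kdm2b (4.62 and 5.77), Bcor (3.94 and 6.08) and Asxl1 (3.92 and 3.75) followed in 3xFNLDD. Jarid2 (2.10 and 3.15), Suz12 (1.49 and 3.42), Ring1 (1.23 and 3.61) and Bcorl1 (1.23 and 3.26) were lower in 3xFNLDD, and Eed (0.739 and 1.49) and Rnf2 (0.367 and 1.01) were lowest. By these sums the 4 genes with the highest RPKM in 3xFNLDD were the 4 with log2 ratios below the median of all genes. By the most-read transcript alone that did not hold. Ezh2 then had 1.465 RPKM in 3xFNLDD, below Asxl1 (2.59), Bcor (1.82), Kdm2b (1.53) and Suz12 (1.49). The ratio contains the 3xFNLDD count, so level and ratio are not independent, and short transcripts with few reads weigh heavily in these sums.

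**Figure D4:**
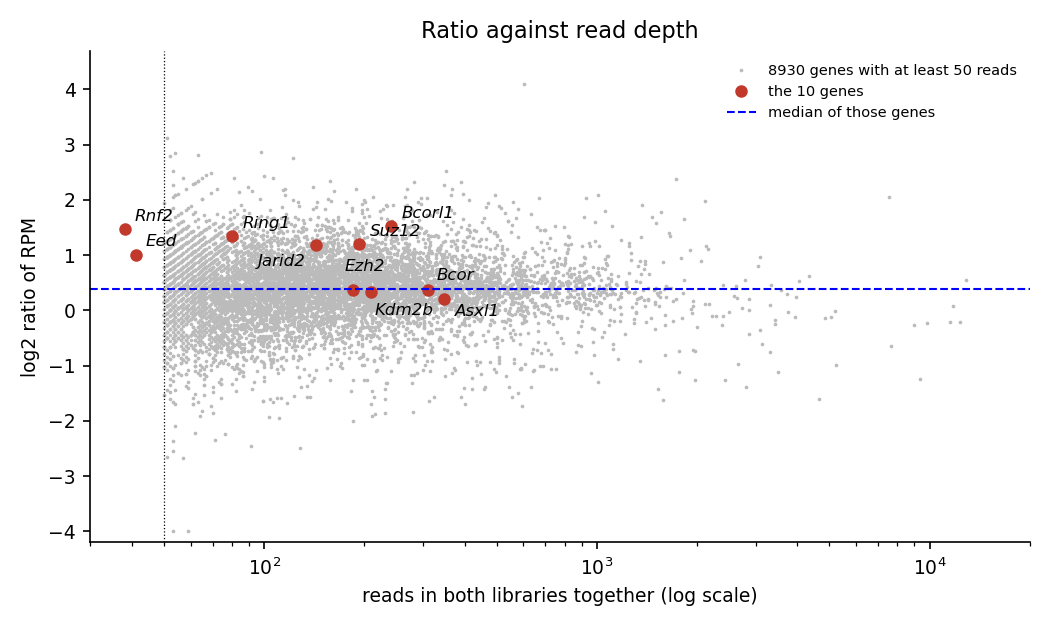
Log2 ratio of RPM (y axis) against reads summed over both libraries (x axis, log scale) for 8930 genes with at least 50 reads (grey) and the 10 genes (red), with the median as a dashed line and 50 reads as a dotted line. The 2 genes without reads in 3xFN-Tel-TAL are drawn at the bottom and 21 genes with more reads than the axis shows are left out. Bcorl1 lies near the top of the grey points at its depth, and Rnf2 and Eed lie left of the 50-read line.

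The wider pathway was taken from 8 lists of 64 Polycomb genes, the 10 included. Of the 50 genes with at least 50 reads, 26 were above 1.4-fold and none was below 1/1.4-fold, beside 42.2% and 7.61% of all genes, with a median log2 ratio of 0.61 beside 0.40 for all genes. With TMM scaling, 17 were above and 3 were below, beside 18.7% and 17.4% of all genes. The counts by list are given beside these shares. Without the 10 genes, 22 of 42 were above 1.4-fold, and the median was 0.61 as well.

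Among canonical PRC1 subunits, 6 of 9 genes were above 1.4-fold, and 5 with TMM, beside 42.2% and 18.7% of all genes. Cbx6, a chromodomain subunit, had 147 and 545 reads with a log2 ratio of 1.45 (95% interval 1.18 to 1.72). Bmi1, a partner of the ligases, had 16 and 55 reads and a log2 ratio of 1.34, close to those of Ring1 and Rnf2. Scmh1 had 156 and 221 reads and a log2 ratio of 0.063, under the median of all genes.

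In the variant complex of Bcor, 2 of 5 genes were above 1.4-fold, Bcorl1 and Skp1a, with TMM too, beside 42.2% and 18.7% of all genes. Skp1a, which is the adaptor that Kdm2b holds, had 25 and 72 reads and a log2 ratio of 1.09. Usp7 had 90 and 147 reads with a log2 ratio of 0.27, and stood near Bcor and Kdm2b. Pcgf1, the partner of Bcor in this complex, had only 10 and 7 reads, and Bcl6, the repressor that recruits Bcor, had 5 and 2. These last counts are in the range of the markers of other cell types, and no ratio is read from them.

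In the other variant PRC1 complexes, 5 of 13 genes were above 1.4-fold, a share under the 42.2% of all genes. With TMM 2 were above and 1 was below, beside 18.7% and 17.4% of all genes. Max, a DNA-binding partner in one of them, had the highest ratio of all list genes, 28 and 148 reads with a log2 ratio of 1.96 (95% interval 1.37 to 2.60). Auts2 (44 and 54 reads, log2 ratio -0.14) and Pcgf3 (85 and 114 reads, log2 ratio -0.016) were at the other end. Of 5 core PRC2 genes, 3 were above 1.4-fold, and 2 with TMM, beside 42.2% and 18.7% of all genes. Of 4 accessory genes 1 was above by either scaling, Jarid2, beside the same shares. Phf1, an accessory subunit, had 53 and 58 reads and a log2 ratio of -0.31, so Jarid2 stood at the top of its list and Phf1 at the bottom.

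In the deubiquitinase complex of Asxl1, 6 of 9 genes were above 1.4-fold, and 4 with TMM, beside 42.2% and 18.7% of all genes. Asxl1 and Asxl2 were not among them. The enzyme Bap1 had 38 and 98 reads and a log2 ratio of 0.93 (95% interval 0.37 to 1.51). Mbd6 had 183 and 634 reads, with a log2 ratio of 1.35 (95% interval 1.11 to 1.60). Asxl3 had 4 and 2 reads. Of the 4 demethylases, Kdm2a and Kdm6b were above 1.4-fold, beside 42.2% of all genes. With TMM neither was and Kdm6a was below 1/1.4-fold, beside 18.7% and 17.4% of all genes. Kdm2a, the homolog of Kdm2b, had 226 and 534 reads and a log2 ratio of 0.80, and its ratio was 1.38 times that of Kdm2b (95% interval 0.98 to 1.92). Kdm6a, which removes the methyl mark that Ezh2 sets, had 97 reads in each library and the lowest log2 ratio of the list genes with that depth, -0.44.

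**Figure D5:**
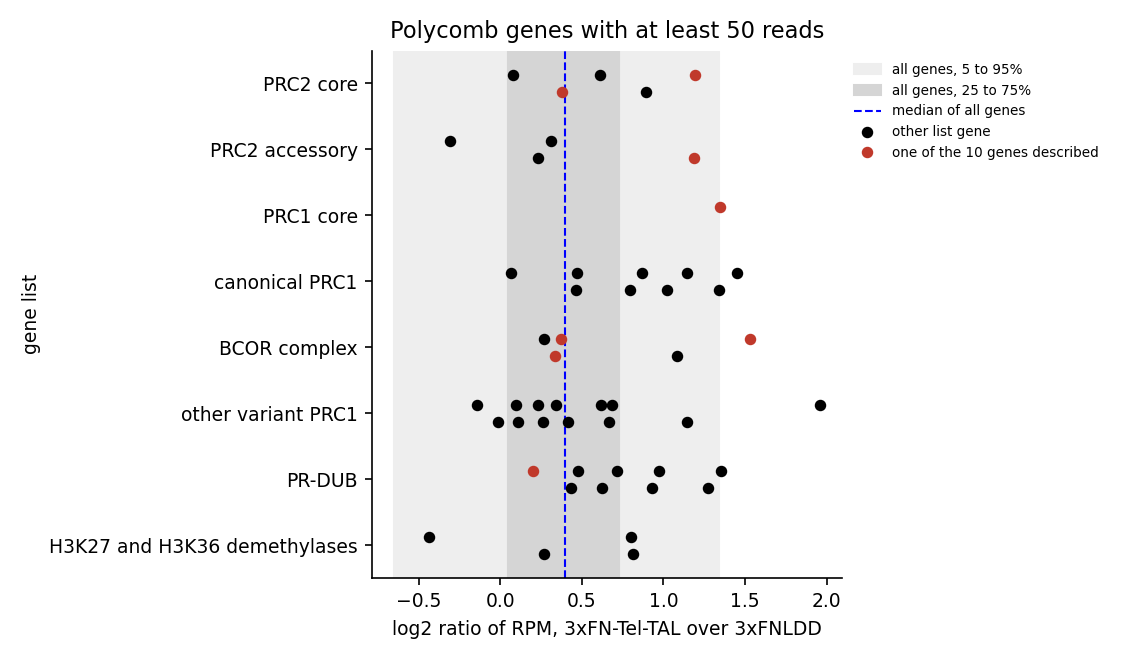
Log2 ratio of RPM (x axis) of the Polycomb genes with at least 50 reads, 1 point a gene, by list (y axis), red for the 10 genes described and black for the others. PR-DUB is the deubiquitinase complex of Asxl1. Dark and light bands hold the middle 25 to 75% and 5 to 95% of 8930 genes, and the dashed line is their median. Max lies farthest right at 1.96 and Kdm6a farthest left at -0.44, and most lists spread over both sides of the median.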

How the data were processed

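The authors trimmed adapters with cutadapt and named GRCm38 and mm10, per the labels. The aligner, annotation release and handling of reads matching several transcripts are not given in the sources used here. The deposited values are raw read counts per Ensembl transcript and RPM, which is the count scaled to the sum of its file. Recomputed RPM differed from the deposited values by at most 4.75e-05. Each listed transcript had a read in at least 1 library.

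Counts were joined on Ensembl ID and summed by gene symbol. With 1 library per group, no test of conditions was possible. Ratios, exact 95% Clopper-Pearson intervals and quotients of ratios with exact conditional intervals were computed with scipy 1.17.1 (Python 3.11.15, pandas 2.3.3, numpy 2.4.6). TMM factors came from edgeR 4.0.16 in R 4.3.3 on transcripts with at least 10 reads. A gene was past the fold above 1.4 or below 1/1.4 with 50 or more reads over both libraries, and transcripts are named from 20 reads. Positions, transcript lengths and types are those of GENCODE M1 on NCBIM37, which is not the authors' build, so no coordinate comes from the files. Copies were sought with minimap2 against NCBIM37. List genes are named as homologs or partners of the 10 genes, or as the 5 highest or 5 lowest ratios. Usp7 and Kdm6b were named after their values were seen. The intervals were tested on simulated Poisson counts. Reads are independent in such counts, so the simulation cannot show how the intervals hold for these reads. The members and lists were chosen with earlier results of these data known.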

Additional observations from a re-analysis of the deposited data

How the results depend on the processing

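No paired analysis was possible because each isolate has a single library, which also leaves none to omit in turn. Of the 8 genes with at least 50 reads, 4 were above 1.4-fold under TMM, beside 18.7% of all genes. The number was also 4 under totals that omit RNAs above 1% of a library, with 0.5 reads added and with the most-read transcript only. No share of all genes was computed for those settings. The lower bound was above 1.4-fold for 4 genes, and for 2 with counts divided by 2, beside 12.0% and 6.32% of all genes. Dividing counts by 2 was an alternative chosen after seeing the data. Among the 50 list genes, 26 were above 1.4-fold by library totals, 17 with TMM and 13 with the 95% bound past 1.4. The shares of all genes were 42.2%, 18.7% and 12.0%. The list number was 11 with at least 200 reads (which leaves fewer genes) and 13 at a threshold of 2. No share of all genes was computed at those settings, so these numbers have no background to be read against. The number below 1/1.4-fold was 0 by library totals and 3 with TMM, beside 7.61% and 17.4% of all genes. It was 2 with the totals that omit RNAs above 1% and 1 with at least 20 reads, again without such a share. The quotient of Kdm2a over Kdm2b was 1.38 over all transcripts and 1.94 (95% interval 1.20 to 3.08) with the most-read transcript only, where that of Ezh1 over Ezh2 was 2.14 (95% interval 1.08 to 4.23). The cause was not tested. No interval with counts divided by 2 was computed for the quotients of most-read transcripts. Those transcripts hold 34.1% of the reads of Ezh2 and 49.8% of those of Kdm2b. Of 94 values of single genes and transcripts under alternatives, 90 stayed within the main interval and none of those past 1.4-fold changed sign. TMM shifts every log2 ratio by -0.37 and the totals without RNAs above 1% by -0.32. Staying within an interval under them thus depends on its width, which is large at low depth. Both shifts are smaller than 1.4-fold (0.49 on the log2 scale), so neither could change such a sign. With TMM the log2 ratio was 0.00047 for Bcor, 0.0079 for Ezh2, -0.17 for Asxl1 and -0.031 for Kdm2b. The direction for Asxl1 and Kdm2b thus depends on the scaling, and Bcor and Ezh2 fall to near 0. With the most-read transcript only, Ezh2 was at -0.12, outside its main interval. Without replicates no difference is checked at any depth, and at low depth the counting interval is wide as well, from -0.030 to 2.15 for Eed with 41 reads.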
